A study of Homo sapiens with 18 samples.

Results

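Abemaciclib was compared with its solvent DMSO in CAMA-1, an established oestrogen receptor-positive breast cancer cell line, to describe which pathways and gene families changed besides the cell cycle (E2F) and oestrogen response genes. The comparison used 6 of the 18 libraries of the series, 3 from cells given DMSO and 3 from cells given 500 nM abemaciclib, and the treatment lasted 5 days in both groups. The labels give the CAMA-1 cells as wild-type for both groups, so that the drug was the difference between them. Each group is 1 line in culture with no stroma or immune cells, and the study describes its replicates as separate biological ones. RNA was read from the 3′ ends of messenger RNA (Lexogen QuantSeq), and the files hold read counts per gene. The 9 CAMA-1 libraries were fitted together, the 3 libraries given 500 nM palbociclib included, and 11053 genes passed the filter on low counts. Levels are normalised counts in CPM, which are counts scaled to a library total of 1000000, and log2 changes are fold changes of abemaciclib against DMSO on the log2 scale with their standard error (SE). The edgeR quasi-likelihood test was used throughout, its p-values were adjusted over all genes tested by the method of Benjamini and Hochberg, and a gene below 0.05 was called higher or lower.

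The 6 libraries held 2308442 to 3943342 counts, where 3 counts, the floor used for absent transcripts, corresponded to between 0.761 and 1.30 CPM. The cells carried the markers of their labelled type: all 15 luminal epithelial markers were tested, and their sum was 6276 to 6577 CPM with DMSO and 9004 to 9214 CPM with abemaciclib, with 10 called higher and 1 lower, the latter lost without DMSO replicate 2 and without abemaciclib replicate 1. Of 12 leukocyte and 8 endothelial markers, none passed the filter. Of 10 fibroblast markers, 7 had no count in any of the 6 libraries. RNA was pooled from whole cultures, so fewer cells of a kind and less RNA per cell cannot be told apart, and CPM values are relative to the other genes of a library, not to the number of cells.

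CDK4 and CDK6 are kinases that bind D-type cyclins and phosphorylate the retinoblastoma protein (Rb), which otherwise holds back genes needed for DNA replication. Abemaciclib inhibits both kinases, and cells whose Rb stays active leave the cell cycle. Arrested cells often remain large and metabolically active. Whether changes in genes for growth, secretion, adhesion and stress responses follow from the arrest was not tested.

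With abemaciclib, 2240 genes (20.3% of those tested) were called higher and 2217 (20.1%) lower, and 1292 of them changed at least 2-fold. The 2 groups of libraries did not overlap for 5315 genes, which is 48.1% of those tested. The median log2 fold change of all genes was 0.01. The oestrogen response list, set aside here, had 113 of 183 genes higher and 22 lower. How many of its genes are also on the lists that rose was not counted. The cell cycle and replication list, also set aside, had 273 of 300 genes lower. Outside that list, 12 of the 13 messenger RNAs encoded by mitochondrial DNA rose and 1 fell, while genes for cytosolic and mitochondrial ribosomes, splicing and the proteasome held far more falls than rises. Lysosomal, sphingolipid, interferon-stimulated, immediate early, PI3K feedback, keratin and actin genes held more rises than falls. All 3 metallothionein transcripts tested fell, and MT2A was among the 8 largest falls.

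**Figure D1:**
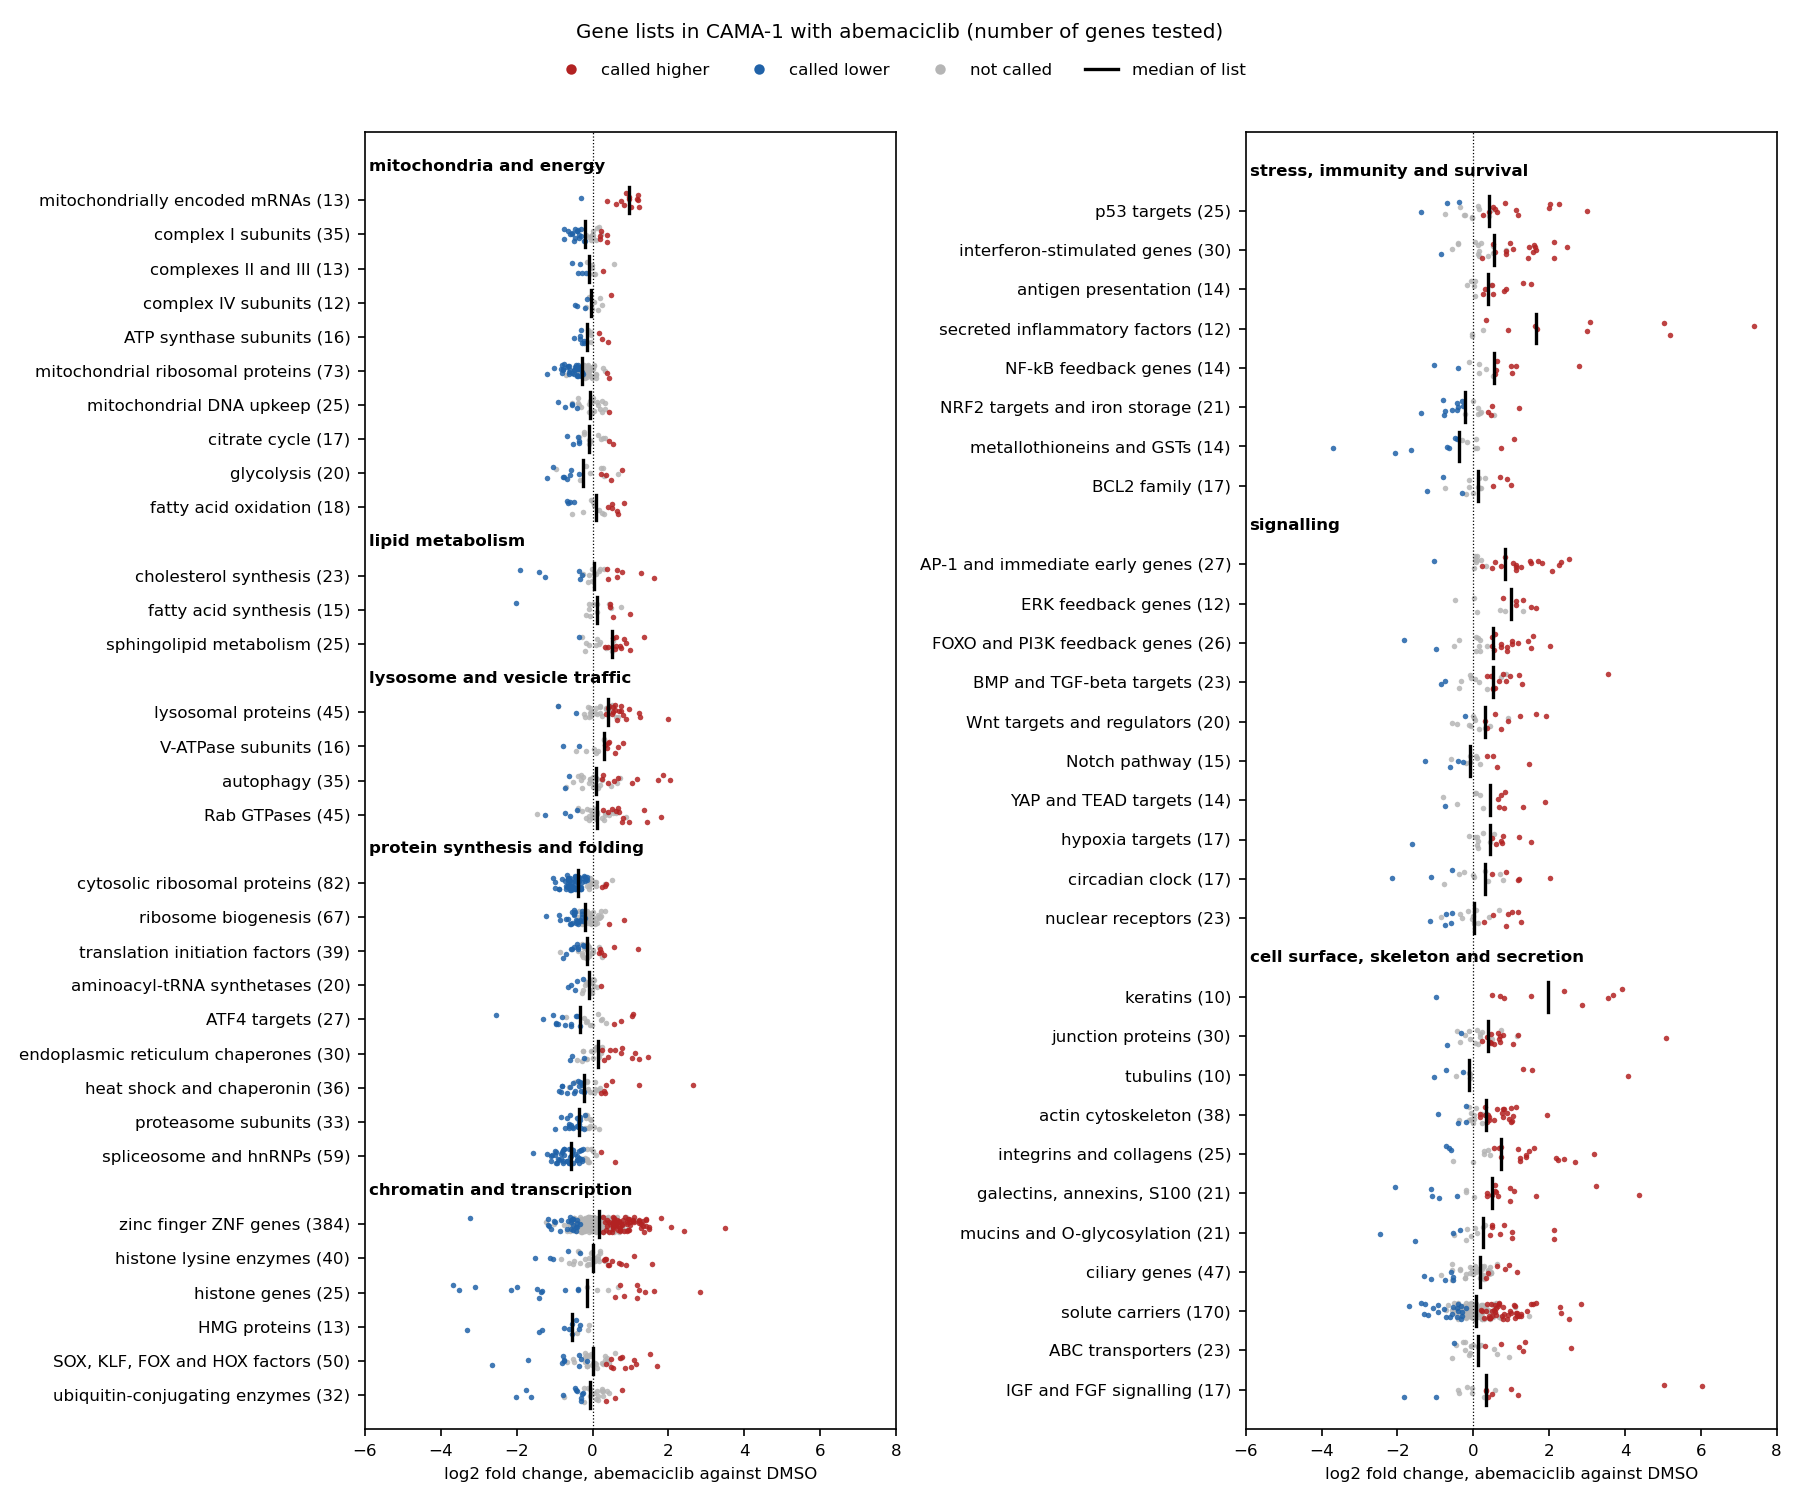
Each point is 1 gene tested, placed by its log2 fold change (abemaciclib against DMSO in CAMA-1) along the horizontal axis, with 1 line for each gene list, the number of genes tested in brackets and the median as a black bar. Red points were called higher, blue points lower and grey points neither; among the lists drawn the medians lie between −0.56 for splicing genes and 1.97 for keratins, and lists such as histone genes spread far to both sides of 0.

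The mitochondrial genome encodes 13 subunits of the respiratory chain and its ribosomal RNAs, and all other subunits are encoded in the nucleus. Of the 13 mitochondrial messenger RNAs, 12 rose and 1 fell, with a median log2 fold change of 0.95. MT-ND3, a subunit of complex I, had 11039, 10603 and 9506 CPM with DMSO and 25258, 22128 and 24123 CPM with abemaciclib (log2 change 1.199, SE 0.05, adjusted p = 7.9e-22). MT-CO2, a subunit of complex IV, had 8582, 7571 and 7986 CPM with DMSO and 17240.5, 14325 and 17162 CPM with abemaciclib (log2 change 1.01, SE 0.06, adjusted p = 1.4e-18). MT-ATP6, a subunit of ATP synthase, had 20900, 18587 and 18954 CPM with DMSO and 35888, 29937 and 38186 CPM with abemaciclib (log2 change 0.83, SE 0.06, adjusted p = 1.6e-15). For these transcripts every abemaciclib library lay above every DMSO library. MT-RNR2, the large mitochondrial ribosomal RNA, rose less, from 47347 ± 3731 to 69439 ± 3489.9 CPM (log2 change 0.55, SE 0.05, adjusted p = 2.9e-11; SD, n = 3). MT-ND6 is the messenger RNA read from the other strand of the mitochondrial genome, and it was lower, from 203 ± 25.1 to 163 ± 14.1 CPM (log2 change −0.305, SE 0.09, adjusted p = 0.0062). The call did not hold when DMSO replicate 1 (−0.21, adjusted p = 0.086) or abemaciclib replicate 2 (−0.24, adjusted p = 0.060) was left out, and reads of MT-ND6 and of transcripts opposite to it cannot be told apart if the counting ignored strand.

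Nuclear-encoded subunits held more falls than rises, beside 20.1% of all genes lower and 20.3% higher. Of 35 complex I genes 18 were lower and 5 higher, with a median of −0.205. The count of higher genes was 3 without any one of DMSO replicates 1 and 2 and abemaciclib replicates 1 and 2. The 2 complex I genes with the largest falls were NDUFS6 (log2 change −0.76, SE 0.07, adjusted p = 2.3e-12) and NDUFS4 (log2 change −0.75, SE 0.12, adjusted p = 1.4e-06). Among 16 ATP synthase genes 7 were lower and 3 higher, and COX6C, a subunit of complex IV, rose from 916 ± 62.3 to 1286 ± 49.5 CPM (log2 change 0.49, SE 0.06, adjusted p = 9.0e-09). Of 73 mitochondrial ribosomal protein genes 33 fell and 2 rose (median −0.27); MRPS18C had 99.9, 89.2 and 99.3 CPM with DMSO and 42.6, 35.998 and 46.8 CPM with abemaciclib (log2 change −1.19, SE 0.12, adjusted p = 4.8e-11). TFAM, which packages and transcribes mitochondrial DNA, fell from 88.9 ± 10.01 to 61.1 ± 6.54 CPM (log2 change −0.53, SE 0.11, adjusted p = 1.2e-04), and SSBP1, the mitochondrial single-strand DNA-binding protein, from 387 ± 18.99 to 235 ± 10.4 CPM (log2 change −0.72, SE 0.07, adjusted p = 2.4e-11).

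The share of all counts in mitochondrial genes was 16.6%, 15.8% and 14.8% with DMSO and 24.99%, 23.4% and 26.1% with abemaciclib. The difference of the means was 9.07 percentage points, with p = 0.1 by exact permutation, two-sided, which is as low as groups of 3 can reach. For ZR-75-1, the other oestrogen receptor-positive line of the series, the share was 20.2% ± 2.68 with DMSO and 19.5% ± 1.01 with abemaciclib (SD, n = 3; exact two-sided permutation p = 0.8). The difference between the responses of the 2 lines was tested for each gene in one fit of all 18 libraries, where 18.2% of 11987 genes passed. All 13 mitochondrial messenger RNAs passed it, each with a higher log2 fold change in CAMA-1 than in ZR-75-1.

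**Figure D2:**
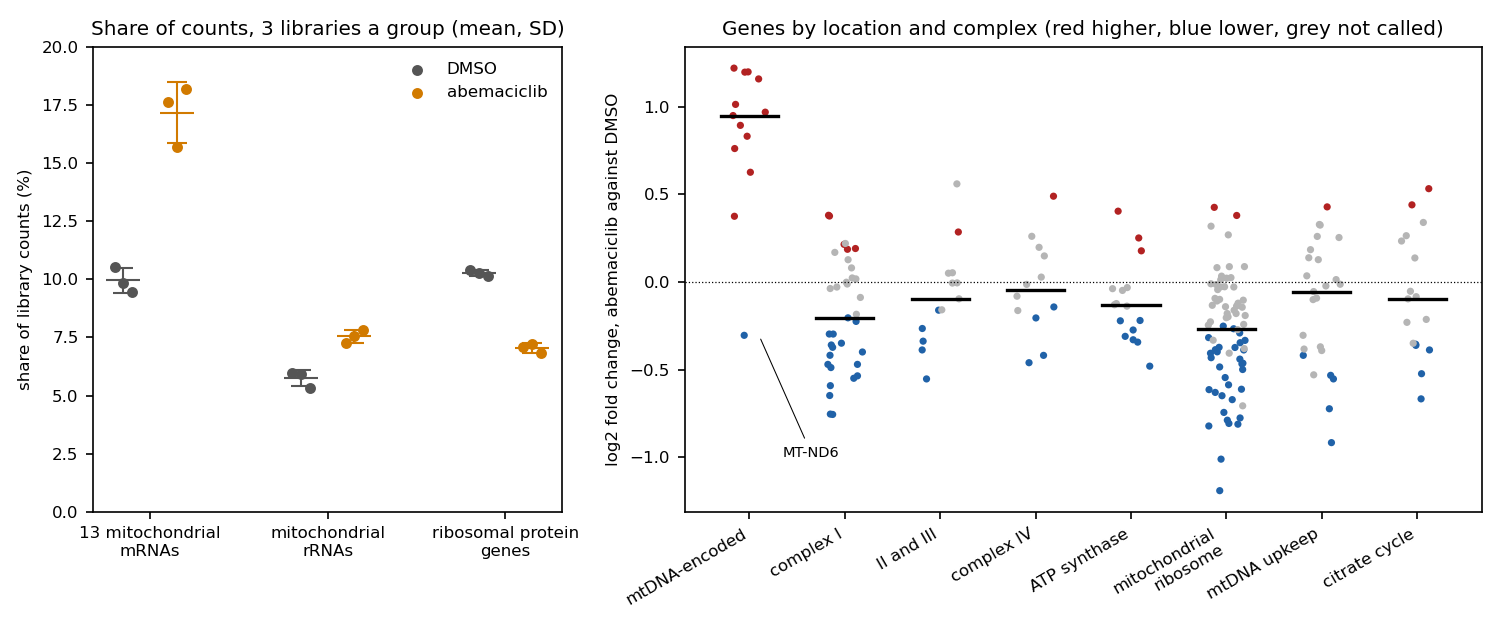
Left, the percent of a library's counts in 13 mitochondrial messenger RNAs, in mitochondrial ribosomal RNAs and in cytosolic ribosomal protein genes, with 1 point a library and the mean and SD of 3 libraries a group; the 13 messenger RNAs take 9.46% to 10.5% with DMSO and 15.7% to 18.2% with abemaciclib. Right, the log2 fold change of each gene by the place it is encoded and the complex it belongs to, with medians as bars; the mitochondrially encoded genes lie apart from the nuclear-encoded lists, MT-ND6 excepted.

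Ribosomal protein and ribosome biogenesis genes held many small falls. Of 82 cytosolic ribosomal protein genes 63 fell and 3 rose (median −0.39), and their summed level went from 97502 ± 2987 to 72811 ± 952 CPM. RPS29 had 2301, 2203 and 2310.1 CPM with DMSO and 1143, 1156 and 1100.5 CPM with abemaciclib (log2 change −1.003, SE 0.06, adjusted p = 6.8e-19), and RPSA had 314, 297 and 291 CPM with DMSO and 151, 149 and 139 CPM with abemaciclib (log2 change −1.04, SE 0.08, adjusted p = 7.3e-15). RPL12 rose, from 461 ± 9.51 to 588 ± 22.6 CPM (log2 change 0.35, SE 0.06, adjusted p = 2.0e-05). In the test between lines, 54 of 82 ribosomal protein genes differed, 2 of them with a higher log2 fold change in CAMA-1, beside 18.2% of all genes that differed. Ribosomal protein genes have many processed pseudogenes, and reads could have been shared with those in the counting. Of 67 ribosome biogenesis genes 27 fell and 2 rose (1 without abemaciclib replicate 1). FBL (fibrillarin), the methyltransferase of nucleolar RNA particles, had 502, 517 and 509 CPM with DMSO and 197, 240.1 and 223 CPM with abemaciclib (log2 change −1.22, SE 0.07, adjusted p = 7.4e-18), and NOP56, its partner in those particles, fell from 178 ± 13.3 to 96.9 ± 8.22 CPM (log2 change −0.87, SE 0.09, adjusted p = 1.4e-10). Of 39 translation initiation factors 10 fell and 6 rose (3 without DMSO replicate 2). Of 20 aminoacyl-tRNA synthetases, which load amino acids onto tRNA, 5 fell and 1 rose, and that rise was lost without any one of DMSO replicates 1 and 2 and abemaciclib replicates 1 and 3. Beside these stand the 20.1% of all genes that were lower and the 20.3% that were higher.

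RNA processing and protein turnover showed the same kind of pattern. Of 59 genes of the spliceosome and of heterogeneous ribonucleoproteins, 45 fell and 2 rose, with a median of −0.56. HNRNPH1 had 359, 389 and 442 CPM with DMSO and 138, 138 and 129 CPM with abemaciclib (log2 change −1.56, SE 0.08, adjusted p = 1.6e-19), and HNRNPA2B1 had 779.7, 826 and 822 CPM with DMSO and 362, 356 and 346 CPM with abemaciclib (log2 change −1.19, SE 0.07, adjusted p = 7.8e-19); both encode RNA-binding proteins that steer splicing. Of 33 proteasome genes 21 fell and 0 were called higher by edgeR or by DESeq2 (1 had an unadjusted p under 0.05). The count of rises was 1 without DMSO replicate 3 and without abemaciclib replicate 1. PSMC3, an ATPase of the regulatory particle, fell from 73.5 ± 6.07 to 37.8 ± 6.23 CPM (log2 change −0.98, SE 0.13, adjusted p = 3.0e-08), and PSMB6, a catalytic subunit, from 261 ± 19.7 to 147 ± 1.21 CPM (log2 change −0.83, SE 0.08, adjusted p = 1.6e-11). Of 13 high-mobility-group and related chromatin genes 10 fell; HMGB2, which is high in dividing cells, had 294, 266 and 209 CPM with DMSO and 25.8, 25.5 and 26.2 CPM with abemaciclib (log2 change −3.3003, SE 0.12, adjusted p = 5.2e-25), and HMGB1 fell from 534 ± 46.3 to 348 ± 7.31 CPM (log2 change −0.62, SE 0.07, adjusted p = 7.3e-10). Of these 13 chromatin genes, 3 are also on the cell cycle list that was set aside. PTMA (prothymosin alpha), an acidic nuclear protein of growing cells, lost the most CPM of all called genes, from 4375 ± 207 to 1927 ± 22.7 CPM (log2 change −1.18, SE 0.05, adjusted p = 1.7e-21).

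Chaperones changed in both directions. Of 36 heat shock and chaperonin genes 17 fell (47.2%) and 7 rose (19.4%), beside 20.1% and 20.3% of all genes. The summed level of the list went from 16789.6 ± 364 to 19899 ± 155 CPM. Subunits of the chaperonin, which folds actin and tubulin, were among the falls, with CCT5 going from 476 ± 12.7 to 272 ± 12.6 CPM (log2 change −0.803, SE 0.07, adjusted p = 5.2e-13) and TCP1 from 182 ± 19.2 to 103 ± 9.24 CPM (log2 change −0.81, SE 0.098, adjusted p = 5.3e-09). HSPA8, the constitutive heat shock cognate chaperone, fell from 172 ± 23.6 to 114 ± 22.8 CPM (log2 change −0.59, SE 0.12, adjusted p = 9.5e-05). The small heat shock proteins HSPB1 and HSPB8 rose. HSPB1 had 2823, 3132 and 2233 CPM with DMSO and 6192, 6274 and 6578 CPM with abemaciclib (log2 change 1.22, SE 0.07, adjusted p = 8.0e-19). HSPB8 had 13.6, 26.1 and 3.31 CPM with DMSO and 78.99, 69.4 and 98.95 CPM with abemaciclib (log2 change 2.65, SE 0.27, adjusted p = 4.3e-11), so that its DMSO libraries differed among themselves by several fold while all lay below the abemaciclib libraries. Of 30 endoplasmic reticulum chaperone and sensor genes 11 rose and 3 fell, and without abemaciclib replicate 1 the counts were 7 and 5.

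Carbon and amino acid metabolism shifted in part. Of 20 glycolysis genes 8 fell (40%) and 4 rose (20%), beside 20.1% and 20.3% of all genes. GAPDH had 1192, 1269 and 1315 CPM with DMSO and 811, 799 and 767 CPM with abemaciclib (log2 change −0.67, SE 0.06, adjusted p = 3.1e-12), and LDHA, which makes lactate, fell from 235 ± 12.7 to 138 ± 9.302 CPM (log2 change −0.76, SE 0.08, adjusted p = 2.4e-10). SLC2A1, the glucose transporter, rose from 67.9 ± 2.95 to 117 ± 14.9 CPM (log2 change 0.78, SE 0.103, adjusted p = 3.8e-08), while SLC16A1, a lactate and pyruvate carrier, fell from 48.8 ± 3.89 to 21.2 ± 3.08 CPM (log2 change −1.19, SE 0.16, adjusted p = 6.9e-08). Of 27 targets of ATF4, the transcription factor of the amino acid response, 13 fell and 4 rose. PHGDH, the entry enzyme of serine synthesis, had 31.1, 25.4 and 30.5 CPM with DMSO and 6.12, 4.83 and 3.79 CPM with abemaciclib (log2 change −2.54, SE 0.28, adjusted p = 3.9e-10). MTHFD2, an enzyme of mitochondrial folate metabolism, fell from 159.6 ± 4.55 to 84.6 ± 9.87 CPM (log2 change −0.92, SE 0.09, adjusted p = 5.5e-11), and the glutamine carrier SLC1A5 from 216 ± 20.9 to 86.4 ± 6.37 CPM (log2 change −1.31, SE 0.09, adjusted p = 6.7e-16). ATF4 itself fell from 329.9 ± 57.1 to 201 ± 19.6 CPM (log2 change −0.72, SE 0.09, adjusted p = 9.7e-09). Between the lines, 16 of 27 ATF4 targets differed, 15 with a higher log2 fold change in CAMA-1, beside 18.2% of all genes that differed.

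Antioxidant genes held more falls than rises. Of 21 targets of NRF2, the factor that answers oxidants, and iron storage genes, 10 fell (47.6%) and 4 rose (19.0%). Over all genes these shares were 20.1% and 20.3%. NQO1, a quinone reductase and standard NRF2 target, had 354, 342 and 326 CPM with DMSO and 140.4, 132 and 119.5 CPM with abemaciclib (log2 change −1.38, SE 0.08, adjusted p = 1.8e-18), and its level was also below that with palbociclib, 208 ± 7.49 CPM (log2 difference −0.67, SE 0.08, adjusted p = 2.0e-07). HMOX1, which breaks down haem, fell from 22.8 ± 1.697 to 13.4 ± 3.35 CPM (log2 change −0.76, SE 0.21, adjusted p = 0.0038). The ferritin subunits FTL (0.49, adjusted p = 3.2e-06) and FTH1 (0.39, adjusted p = 1.1e-05) rose.

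Metallothioneins are small cysteine-rich proteins that bind zinc, copper and cadmium, and their genes are switched on by zinc through the factor MTF1, which binds metal response elements near the start site. All 3 metallothionein genes tested fell. MT2A had 396, 394 and 382 CPM with DMSO and 30.3, 30.3 and 29.7 CPM with abemaciclib (log2 change −3.696, SE 0.098, adjusted p = 1.5e-29). MT1F had 33.1, 40.4 and 34.5 CPM with DMSO and 7.18, 9.66 and 9.17 CPM with abemaciclib (log2 change −2.07, SE 0.205, adjusted p = 3.0e-11). MT1X had 12.2, 14.6 and 12.8 CPM with DMSO and 3.99, 3.51 and 5.06 CPM with abemaciclib (log2 change −1.63, SE 0.31, adjusted p = 3.3e-05). In none of the 3 genes did the groups overlap, and the abemaciclib libraries agreed closely for MT2A. MT2A and MT1F were also lower than with palbociclib, where they had 72.1 ± 6.93 CPM (log2 difference −1.26, SE 0.11, adjusted p = 4.5e-11) and 15.1 ± 1.67 CPM (−0.83, SE 0.23, adjusted p = 0.033). The metallothionein genes lie together on chromosome 16 and are close relatives of one another, so reads could have been shared between them. Of the glutathione transferase genes on the same list, MGST3 fell from 335 ± 16.6 to 209 ± 17.4 CPM (log2 change −0.68, SE 0.08, adjusted p = 8.2e-10) and GSTM3 rose from 422 ± 9.34 to 699 ± 42.5 CPM (log2 change 0.73, SE 0.06, adjusted p = 1.3e-12).

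The promoters of MT2A and MT1X are shown because these genes fell together and because metal response elements can be read from the sequence. The 250 bases before the start site are given 5′ to 3′ on the gene's strand from RefSeq (GRCh38.p14; MT2A chr16:56608334-56608583, plus strand, and MT1X chr16:56682220-56682469, plus strand). Capitals mark matches to the core of the metal response element, TGCACNC or TGCGCNC on either strand.
MT2A: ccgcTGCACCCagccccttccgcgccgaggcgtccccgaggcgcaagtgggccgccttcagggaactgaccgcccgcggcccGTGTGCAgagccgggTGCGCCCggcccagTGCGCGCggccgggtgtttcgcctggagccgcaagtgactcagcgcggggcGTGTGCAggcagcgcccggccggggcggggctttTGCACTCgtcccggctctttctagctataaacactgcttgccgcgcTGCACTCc
MT1X: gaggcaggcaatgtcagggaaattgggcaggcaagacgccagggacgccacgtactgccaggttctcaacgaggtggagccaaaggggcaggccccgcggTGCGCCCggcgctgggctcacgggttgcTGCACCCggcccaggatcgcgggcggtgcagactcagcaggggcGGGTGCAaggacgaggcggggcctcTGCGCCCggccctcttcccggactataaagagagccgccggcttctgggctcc
The window held 7 matches for MT2A and 4 for MT1X. At least 1 match was present in 24.7% of 27305 promoters of the same length and in 34.5% of the 8672 whose genes were tested here, so that a single match is common.

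Cholesterol genes went in both directions. Of 23 cholesterol synthesis and uptake genes 7 rose (30.4%) and 6 fell (26.1%), beside 20.3% and 20.1% of all genes. ACAT2, which condenses acetyl-CoA at the start of the pathway, had 103, 83.7 and 95.8 CPM with DMSO and 26.9, 23.7 and 24.03 CPM with abemaciclib (log2 change −1.91, SE 0.13, adjusted p = 9.9e-16), and EBP, a sterol isomerase, had 178, 182 and 184 CPM with DMSO and 73.4, 84.7 and 72.1 CPM with abemaciclib (log2 change −1.25, SE 0.09, adjusted p = 3.8e-15). SC5D, a sterol desaturase of the last steps, rose from 10.3 ± 1.601 to 25.1 ± 1.12 CPM (log2 change 1.28, SE 0.204, adjusted p = 1.8e-06), and SQLE (squalene epoxidase) from 68.6 ± 7.104 to 119 ± 10.1 CPM (log2 change 0.79, SE 0.102, adjusted p = 2.7e-08). Tested against palbociclib, 2.33% of all genes differed. Of the cholesterol genes 7 did, all lower with abemaciclib, and for ACAT2 the log2 difference was −0.68, SE 0.14, adjusted p = 0.0032. FADS1, the delta-5 fatty acid desaturase, had 39.7, 52.3 and 37.6 CPM with DMSO and 10.4, 11.4 and 10.1 CPM with abemaciclib (log2 change −2.02, SE 0.19, adjusted p = 4.4e-12) and was also lower than with palbociclib (log2 difference −1.25, SE 0.197, adjusted p = 4.1e-05). FASN (fatty acid synthase) rose from 313 ± 24.5 to 433 ± 12.4 CPM (log2 change 0.46, SE 0.07, adjusted p = 4.6e-07). Of 18 fatty acid oxidation genes 6 rose (33.3%) and 4 fell (22.2%), beside 20.3% and 20.1% of all genes (median of the list 0.09). ACAA2, a thiolase of that pathway, rose from 22.5 ± 3.599 to 40.4 ± 7.21 CPM (log2 change 0.82, SE 0.16, adjusted p = 4.5e-05), and ACSL3, which activates fatty acids, from 201 ± 6.18 to 314 ± 25.5 CPM (log2 change 0.65, SE 0.07, adjusted p = 1.7e-09). CPT1A, which brings fatty acids into mitochondria, fell from 702 ± 45.01 to 464 ± 31.4 CPM (log2 change −0.597, SE 0.07, adjusted p = 7.2e-10).

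Genes of membrane lipids and of the lysosome mostly rose where they were called. Of 25 sphingolipid genes 12 rose and 1 fell (median 0.51), and the single fall was lost on leaving out any one library but abemaciclib replicate 3. ST3GAL5, which makes the ganglioside GM3, had 7.61, 6.62 and 6.62 CPM with DMSO and 17.02, 15.8 and 20.2 CPM with abemaciclib (log2 change 1.35, SE 0.26, adjusted p = 4.3e-05), and UGCG, which adds glucose to ceramide, rose from 67.02 ± 1.64 to 124 ± 11.9 CPM (log2 change 0.88, SE 0.099, adjusted p = 8.1e-10). Of 45 lysosomal genes 18 rose and 2 fell (median 0.41), and for 16 subunits of the V-ATPase, the proton pump that acidifies lysosomes, these counts were 7 and 2 (1 fall without DMSO replicate 2 or abemaciclib replicate 3). CTSD, the protease cathepsin D and also a known oestrogen target, had 180.03, 167 and 166 CPM with DMSO and 432, 405 and 363 CPM with abemaciclib (log2 change 1.23, SE 0.08, adjusted p = 6.0e-17). PLBD2, a lysosomal phospholipase-like protein, had 15.9, 14.3 and 13.7 CPM with DMSO and 36.7, 36.9 and 30.7 CPM with abemaciclib (log2 change 1.25, SE 0.17, adjusted p = 1.1e-07). PSAP, the precursor of the saposins that present sphingolipids to hydrolases, rose from 392 ± 26.9 to 569 ± 43.6 CPM (log2 change 0.54, SE 0.07, adjusted p = 2.0e-08). GUSB (beta-glucuronidase) was one of the falls, from 60.8 ± 5.17 to 32.2 ± 1.59 CPM (log2 change −0.92, SE 0.13, adjusted p = 2.3e-07). Of 35 autophagy genes 10 rose and 2 fell (1 without any one of DMSO replicates 2 and 3 and abemaciclib replicates 1 and 2). These shares of 28.6% and 5.71% stand beside 20.3% and 20.1% of all genes. WIPI1, which binds the forming autophagosome, had 13.2, 13.9 and 11.6 CPM with DMSO and 46.3, 52.7 and 40.5 CPM with abemaciclib (log2 change 1.85, SE 0.17, adjusted p = 4.8e-12), and MAP1LC3B, which coats it, rose from 33.4 ± 5.82 to 68.1 ± 1.13 CPM (log2 change 1.04, SE 0.13, adjusted p = 6.7e-09). In the test between lines, 15 of 45 lysosomal genes differed, beside 18.2% of all genes, and all but 1 of the 15 had a higher log2 fold change in ZR-75-1.

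Many lysosomal genes carry an E-box, CACGTG, that factors of the TFEB family bind. The promoters of CTSD and PLBD2 are shown as lysosomal genes that rose, with the 250 bases before the start site as above (RefSeq, GRCh38.p14; CTSD chr11:1763928-1764177, minus strand, and PLBD2 chr12:113358337-113358586, plus strand), and capitals mark CACGTG, which reads the same on both strands.
CTSD: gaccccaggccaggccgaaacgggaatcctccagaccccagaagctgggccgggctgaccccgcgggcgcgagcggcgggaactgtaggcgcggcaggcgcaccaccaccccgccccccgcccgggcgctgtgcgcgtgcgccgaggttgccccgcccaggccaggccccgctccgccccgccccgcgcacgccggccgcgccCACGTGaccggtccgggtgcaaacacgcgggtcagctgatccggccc
PLBD2: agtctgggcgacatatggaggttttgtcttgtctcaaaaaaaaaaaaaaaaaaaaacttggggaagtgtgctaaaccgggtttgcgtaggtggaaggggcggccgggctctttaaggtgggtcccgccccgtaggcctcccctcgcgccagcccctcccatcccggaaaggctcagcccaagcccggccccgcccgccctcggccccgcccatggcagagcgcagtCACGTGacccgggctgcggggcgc
The E-box was present in 5 of 12 lysosomal genes that were higher and had a promoter in the table, in 4 of 17 that were not called, in 6.49% of all promoters and in 9.29% of those of tested genes. A match of these letters says nothing of whether a factor binds there.

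Interferon-stimulated genes are induced when interferon or viral RNA is sensed, through IRF and other factors. Of 30 such genes tested 16 rose and 1 fell (median 0.55); without abemaciclib replicate 3 there were 2 falls. IFI6, a mitochondrial survival protein, had 13.9, 14.99 and 10.9 CPM with DMSO and 68.9, 74.6 and 72.7 CPM with abemaciclib (log2 change 2.46, SE 0.16, adjusted p = 4.1e-17), above the level with palbociclib of 28.6 ± 2.66 CPM (log2 difference 1.32, SE 0.14, adjusted p = 3.6e-09). IFIH1, a sensor of double-stranded RNA, had 4.63, 11.2 and 4.73 CPM with DMSO and 16.8, 21.95 and 20.9 CPM with abemaciclib (log2 change 1.57, SE 0.27, adjusted p = 8.6e-06), where 1 DMSO library was above the other two. IRF1, a transcription factor of this response, rose from 9.55 ± 2.54 to 30.6 ± 4.13 CPM (log2 change 1.65, SE 0.202, adjusted p = 6.3e-09) and IRF9 from 1.63 ± 2.04 to 6.78 ± 1.89 CPM (log2 change 2.12, SE 0.53, adjusted p = 0.0013). OAS3, an activator of RNase L, was lower, from 20.7 ± 5.36 to 11.5 ± 0.394 CPM (log2 change −0.84, SE 0.24, adjusted p = 0.0045), a call lost without DMSO replicate 1 (−0.62, adjusted p = 0.066). Of 14 antigen presentation genes 8 rose and 0 fell by edgeR, by DESeq2 or at an unadjusted p under 0.05. HLA-B, a class I molecule, had 116, 123 and 132 CPM with DMSO and 228, 244 and 212 CPM with abemaciclib (log2 change 0.88, SE 0.08, adjusted p = 1.2e-11), and the peptide transporter TAP1 rose from 11.5 ± 2.41 to 28.7 ± 3.09 CPM (log2 change 1.31, SE 0.2001, adjusted p = 8.3e-07). HLA class I genes are close relatives, and their counts may have shared reads. The 12 leukocyte markers summed to 2.32 to 3.49 CPM with DMSO and 0.798 to 4.83 CPM with abemaciclib.

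The promoters of IFI6 and IFIH1 are shown as rising genes of this list that hold the interferon-stimulated response element, searched on either strand as the letters GAAA, any 2 bases, and GAAA again, where matches may overlap. The windows are again the 250 bases before the start site (RefSeq, GRCh38.p14; IFI6 chr1:27672193-27672442, minus strand, and IFIH1 chr2:162318685-162318934, minus strand), with matches in capitals.
IFI6: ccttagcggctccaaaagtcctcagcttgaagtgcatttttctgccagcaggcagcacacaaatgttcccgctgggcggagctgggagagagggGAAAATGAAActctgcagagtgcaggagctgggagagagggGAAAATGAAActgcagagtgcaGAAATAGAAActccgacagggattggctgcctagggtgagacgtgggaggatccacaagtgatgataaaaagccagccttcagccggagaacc
IFIH1: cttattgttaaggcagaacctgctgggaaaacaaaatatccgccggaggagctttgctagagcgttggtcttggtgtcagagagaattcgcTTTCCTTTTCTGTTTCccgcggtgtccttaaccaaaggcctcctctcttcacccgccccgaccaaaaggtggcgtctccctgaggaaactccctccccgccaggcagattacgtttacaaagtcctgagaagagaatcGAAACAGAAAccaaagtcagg
Both windows held 3 matches. The element was present in 7 of 13 genes of the list that were higher and had a promoter in the table, in 4 of 11 that were not called, in the 1 that was lower, and in 3.07% of all promoters and 2.02% of those of tested genes. These genes are known for this element, so the share describes the list and not the drug.

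Secreted and inflammatory factors held more rises than falls, from very different levels. Of 12 secreted factors tested 9 rose and 0 fell by edgeR, by DESeq2 or at an unadjusted p under 0.05, while 32 of the 44 genes on the list did not pass the filter. Their summed level went from 4456 ± 419.5 to 5644 ± 137 CPM, and IGFBP5, a carrier of insulin-like growth factors, made up most of it, rising from 4037 ± 414 to 5054 ± 166 CPM (log2 change 0.32, SE 0.06, adjusted p = 1.0e-05). Several others had few counts with DMSO. The filter can be passed through the drug-treated libraries alone, so such genes were tested because they were higher. A fall could not have been called for them, and the counts of 9 and 0 are in part set by the filter. IL32, an inflammatory cytokine, had no count in the DMSO libraries and 59 counts in all with abemaciclib, at least 7.21-fold higher against a floor of 3 counts per library. TNF had 1 and 47 counts in all, a ratio of 51.7-fold (95% interval 8.84 to 2085), where the interval covers counting error only. CCL5, a chemokine, had 0.662, 0.349 and 0.946 CPM with DMSO and 6.65, 6.15 and 5.37 CPM with abemaciclib (log2 change 3.08, SE 0.55, adjusted p = 1.2e-05). AREG (amphiregulin), a ligand of the EGF receptor, had 18.2, 18.5 and 15.1 CPM with DMSO and 51.6, 54.4 and 54.4 CPM with abemaciclib (log2 change 1.64, SE 0.16, adjusted p = 1.3e-11). GDF15, a stress cytokine, had 4.63, 6.62 and 9.22 CPM with DMSO and 61.7, 60.1 and 49.6 CPM with abemaciclib (log2 change 3.01, SE 0.17, adjusted p = 1.3e-18) and was below its level with palbociclib, 175 ± 3.79 CPM (log2 difference −1.61, SE 0.11, adjusted p = 3.8e-14). Of 14 genes of the NF-kB pathway 7 rose and 2 fell (1 without abemaciclib replicate 2). RELB, a subunit of the non-canonical branch, had 2.98, 3.83 and 5.202 CPM with DMSO and 30.6, 30.3 and 25.3 CPM with abemaciclib (log2 change 2.79, SE 0.23, adjusted p = 2.7e-13), and NFKB2, its partner, rose from 28.5 ± 6.24 to 56.2 ± 0.811 CPM (log2 change 1.004, SE 0.14, adjusted p = 2.4e-07). NFKBIA, the inhibitor that NF-kB itself induces, had 228, 241 and 219 CPM with DMSO and 466, 459.6 and 475 CPM with abemaciclib (log2 change 1.03, SE 0.07, adjusted p = 1.0e-15).

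**Figure D3:**
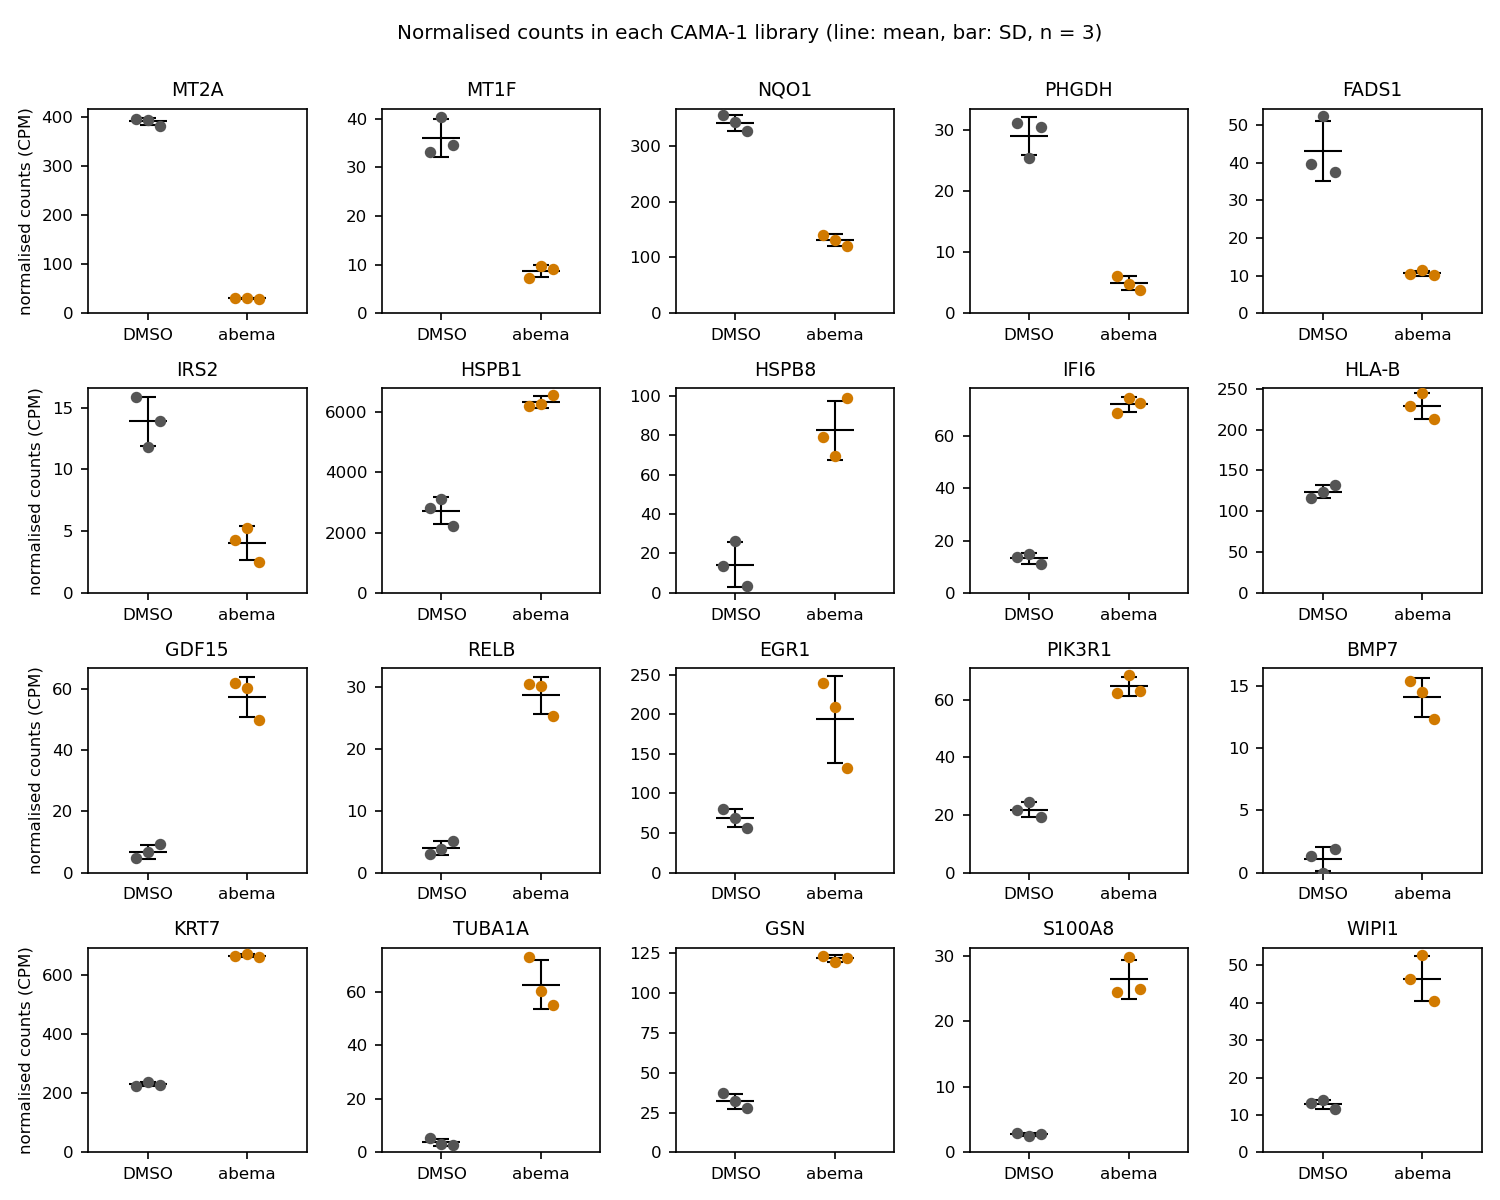
Normalised counts (CPM, vertical axes from 0 and scaled to each gene) of 20 genes in each of the 3 DMSO and 3 abemaciclib libraries of CAMA-1, with the mean and SD. MT2A, MT1F, NQO1, PHGDH, FADS1 and IRS2 were lower and the other 14 higher with abemaciclib, and the 2 groups do not overlap for any of the genes drawn. The genes were largely chosen for lack of overlap or after their values were seen, and 48.1% of all genes tested did not overlap.

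Immediate early genes answer growth factors within minutes and many encode AP-1 subunits or proteins that destroy short-lived RNAs. Of 27 such genes 18 rose and 1 fell (median 0.85). FOS had 4.63, 4.53 and 2.36 CPM with DMSO and 20.5, 21.95 and 12.96 CPM with abemaciclib (log2 change 2.301, SE 0.28, adjusted p = 5.6e-09), and JUN rose from 52.6 ± 7.05 to 117 ± 18.3 CPM (log2 change 1.14, SE 0.11, adjusted p = 2.3e-11). EGR1 had 79.8, 69.4 and 56.99 CPM with DMSO and 239.6, 209 and 132 CPM with abemaciclib (log2 change 1.51, SE 0.13, adjusted p = 1.3e-12), with the third abemaciclib library well below the other two. ZFP36L1, which marks RNAs for decay, had 183, 174 and 157 CPM with DMSO and 447, 482 and 513 CPM with abemaciclib (log2 change 1.49, SE 0.08, adjusted p = 1.6e-19). EGR1 and FOS were lower than with palbociclib (log2 differences −0.75, SE 0.12, adjusted p = 3.1e-05, and −0.97, SE 0.196, adjusted p = 0.0017). The fall was in IER5, from 48.1 ± 3.64 to 23.1 ± 5.81 CPM (log2 change −1.04, SE 0.17, adjusted p = 2.3e-06). In the test between lines, 17 of 27 genes differed, all with a higher log2 fold change in CAMA-1, beside 18.2% of all genes that differed. Of 12 feedback genes of the ERK pathway 6 rose and 0 fell by edgeR, by DESeq2 or at an unadjusted p under 0.05. DUSP8, a phosphatase of MAP kinases, had 28.5, 27.9 and 25.5 CPM with DMSO and 79.8, 86.9 and 91.997 CPM with abemaciclib (log2 change 1.66, SE 0.12, adjusted p = 6.9e-15).

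Genes that FOXO factors and PI3K inhibition raise were also mostly higher. Of 26 genes 15 rose and 2 fell (median 0.52). PIK3R1, the regulatory subunit of PI3K, had 21.8, 24.4 and 19.2 CPM with DMSO and 62.2, 68.5 and 62.9 CPM with abemaciclib (log2 change 1.57, SE 0.14, adjusted p = 1.0e-12), PIK3IP1, an inhibitor of the enzyme, rose from 5.25 ± 1.39 to 22.04 ± 0.274 CPM (log2 change 2.03, SE 0.25, adjusted p = 8.9e-09), and TXNIP, which limits glucose uptake, from 163 ± 6.703 to 443 ± 23.01 CPM (log2 change 1.44, SE 0.07, adjusted p = 2.2e-20). The receptors ERBB2 (0.88, adjusted p = 1.3e-10), ERBB3 (0.56, adjusted p = 2.1e-07) and IGF1R (1.18, adjusted p = 0.0023) rose. The adaptors of the insulin receptor were the falls: IRS2 had 15.9, 11.9 and 13.95 CPM with DMSO and 4.26, 5.27 and 2.53 CPM with abemaciclib (log2 change −1.81, SE 0.33, adjusted p = 1.5e-05), and IRS1 fell from 14.8 ± 4.86 to 7.49 ± 1.53 CPM (log2 change −0.98, SE 0.296, adjusted p = 0.0069), a call lost without DMSO replicate 2 (−0.70, adjusted p = 0.089). Between the lines, 12 of 26 genes of this list differed, all with a higher log2 fold change in CAMA-1, beside 18.2% of all genes that differed.

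Other signalling lists held single large changes. Of 23 BMP and TGF-beta genes 12 rose and 2 fell. BMP7, a secreted ligand, had 1.32, 0 and 1.89 CPM with DMSO and 15.4, 14.5 and 12.3 CPM with abemaciclib (log2 change 3.55, SE 0.43, adjusted p = 4.1e-09). ID3, an inhibitor of helix-loop-helix factors and BMP target, rose from 142 ± 8.47 to 278 ± 31.6 CPM (log2 change 0.97, SE 0.08, adjusted p = 4.0e-13), while its relative ID2 fell from 237 ± 9.96 to 130.4 ± 9.77 CPM (log2 change −0.86, SE 0.08, adjusted p = 1.3e-11). WNT4, a secreted ligand that progesterone induces in the breast, had 7.28, 5.23 and 6.86 CPM with DMSO and 24.5, 30.7 and 19.9 CPM with abemaciclib (log2 change 1.92, SE 0.23, adjusted p = 5.7e-09). Of 14 YAP and TEAD targets 7 rose and 1 fell (0 without abemaciclib replicate 1), with CCN1 going from 27.1 ± 3.27 to 68.2 ± 5.98 CPM (log2 change 1.31, SE 0.13, adjusted p = 4.9e-11). Of 17 hypoxia targets 7 rose and 1 fell; STC1, a secreted glycoprotein, fell from 56.1 ± 2.34 to 18.6 ± 4.48 CPM (log2 change −1.61, SE 0.17, adjusted p = 1.9e-10), and its level with palbociclib was lower still at 6.31 ± 2.01 CPM (log2 difference 1.57, SE 0.23, adjusted p = 1.3e-05). FGF18, a fibroblast growth factor, had 1 count in all with DMSO and 80 with abemaciclib, a ratio of 87.98-fold (95% interval 15.3 to 3518) that covers counting error only.

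Targets of p53 rose more often than they fell, 12 against 3 of 25. CDKN1A, which encodes the kinase inhibitor p21, had 8.94, 8.37 and 13.01 CPM with DMSO and 43.6, 34.7 and 44.3 CPM with abemaciclib (log2 change 1.99, SE 0.19, adjusted p = 9.7e-12). TP53INP1, a p53-induced protein of autophagy and cell death, rose from 6.23 ± 1.802 to 26.01 ± 5.12 CPM (log2 change 2.03, SE 0.24, adjusted p = 3.1e-09). The count of falls was 1 without DMSO replicate 3 and 1 without abemaciclib replicate 2. In the test between lines 12 of 25 p53 targets differed, all with a higher log2 fold change in CAMA-1, beside 18.2% of all genes that differed. Of 17 genes of the BCL2 family, which govern apoptosis, 4 rose and 3 fell (1 fall without DMSO replicate 2 or without abemaciclib replicate 1). These shares of 23.5% and 17.6% are near the 20.3% and 20.1% of all genes. MCL1, an inhibitor of apoptosis in that family, rose from 177 ± 13.7 to 352 ± 13.7 CPM (log2 change 0.996, SE 0.07, adjusted p = 1.1e-14).

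**Figure D4:**
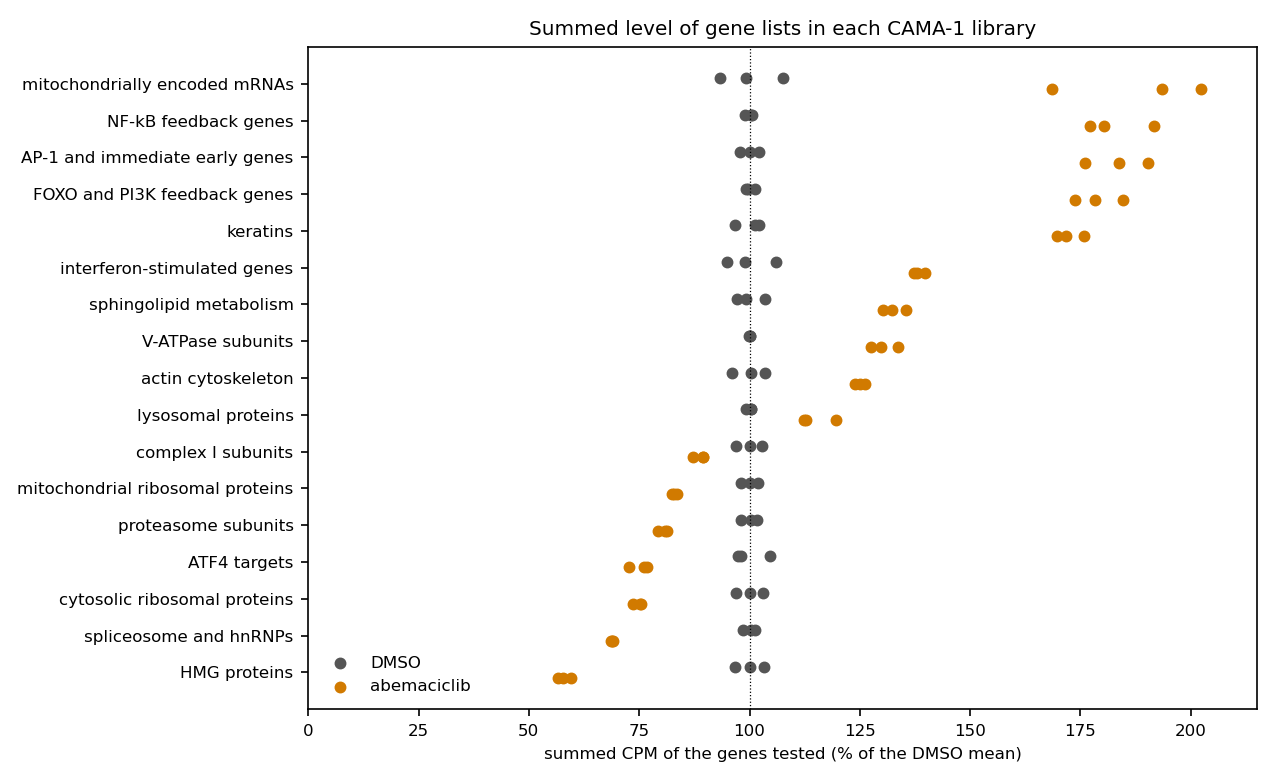
Summed CPM of the tested genes of 17 lists in each of the 6 libraries, as a percent of the mean of the 3 DMSO libraries (horizontal axis from 0; grey DMSO, orange abemaciclib). Abemaciclib libraries lie between 168.5% and 202.3% for mitochondrially encoded messenger RNAs and between 56.7% and 59.5% for HMG proteins, and the groups do not overlap for any list drawn; a sum follows its most abundant genes.

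Keratins form the intermediate filaments of epithelial cells. Of 10 keratin genes tested, 9 rose and 1 fell (median 1.97). The simple epithelial keratins rose moderately: KRT7 had 223, 237 and 229 CPM with DMSO and 664, 669 and 659.8 CPM with abemaciclib (log2 change 1.53, SE 0.07, adjusted p = 1.2e-22), and KRT19 rose from 1588 ± 40.8 to 2606 ± 40.3 CPM (log2 change 0.71, SE 0.05, adjusted p = 7.4e-15). The paper places KRT19 in the hallmark set of early oestrogen response genes. Keratins of hair and stratified epithelium rose from low levels. Those nearly absent with DMSO, such as KRT32, passed the filter through the drug-treated libraries, and a fall could hardly have been called for them. KRT81, a hair keratin, had 2.32, 3.83 and 2.36 CPM with DMSO and 44.9, 33.4 and 29.7 CPM with abemaciclib (log2 change 3.697, SE 0.25, adjusted p = 3.5e-16), KRT32, another hair keratin, had 0.662, 0.349 and 0.946 CPM with DMSO and 9.84, 11.9 and 11.7 CPM with abemaciclib (log2 change 3.93, SE 0.44, adjusted p = 5.8e-10), and KRT80 had 29.8, 39.7 and 28.8 CPM with DMSO and 179.5, 169 and 164 CPM with abemaciclib (log2 change 2.398, SE 0.11, adjusted p = 8.8e-22). KRT10, of the upper skin layers, fell from 88.01 ± 6.696 to 44.5 ± 6.44 CPM (log2 change −0.99, SE 0.12, adjusted p = 1.1e-08). Keratins of one type are close relatives and some have pseudogenes. Of 14 basal and myoepithelial markers, 4 were tested and all 4 rose. As the filter can be passed through the drug-treated libraries alone, low markers such as LAMB3 and ACTA2 could hardly have been called lower. The sum of the 14 was 15.1 to 20.2 CPM with DMSO and 60.6 to 74.7 CPM with abemaciclib. Within that sum MYLK, the myosin light chain kinase, had 4.302, 3.14 and 5.202 CPM with DMSO and 42.02, 28.1 and 30.98 CPM with abemaciclib (log2 change 2.97, SE 0.23, adjusted p = 3.8e-14). The part of other cells in these rises was not tested; the defining basal keratin KRT5 and EGFR had no count in any of these libraries, and 8 of the 14 markers stayed at 3 counts or fewer.

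Cytoskeletal genes of the actin system held more rises than falls. Of 38 genes 22 rose and 4 fell, and the latter count was 2 without any one of DMSO replicate 1 and the 3 abemaciclib replicates. GSN (gelsolin), which severs and caps actin filaments, had 37.1, 32.1 and 27.7 CPM with DMSO and 124, 119.8 and 122 CPM with abemaciclib (log2 change 1.93, SE 0.12, adjusted p = 7.4e-18). MYH9, the heavy chain of non-muscle myosin, had 326, 330.5 and 341 CPM with DMSO and 676, 669 and 629.8 CPM with abemaciclib (log2 change 0.98, SE 0.07, adjusted p = 2.5e-16), and its light chain MYL12A rose from 155 ± 14.03 to 339 ± 1.36 CPM (log2 change 1.13, SE 0.08, adjusted p = 3.4e-16). VCL (vinculin), which ties filaments to adhesions, rose from 31.1 ± 5.26 to 63.1 ± 3.77 CPM (log2 change 1.04, SE 0.13, adjusted p = 2.5e-08). The paralogue MYH10 fell, from 23.7 ± 2.44 to 12.6 ± 1.48 CPM (log2 change −0.93, SE 0.204, adjusted p = 2.7e-04). Between the lines 22 of 37 genes differed, all with a higher log2 fold change in CAMA-1, beside 18.2% of all genes that differed. Tubulins went both ways, and 5 of the 10 tested are also on the cell cycle list that was set aside. TUBA1A, an alpha-tubulin known from neurons, had 5.29, 3.14 and 2.84 CPM with DMSO and 72.9, 60.1 and 55.01 CPM with abemaciclib (log2 change 4.09, SE 0.21, adjusted p = 9.4e-20), and TUBA4A had 42.03, 41.5 and 43.7 CPM with DMSO and 130.1, 126 and 118 CPM with abemaciclib (log2 change 1.55, SE 0.11, adjusted p = 9.9e-16). TUBA1B, the alpha-tubulin of dividing cells, fell from 2014 ± 136 to 984 ± 41.6 CPM (log2 change −1.03, SE 0.06, adjusted p = 8.5e-18). Alpha-tubulin genes are near-identical in their coding parts, so these values are uncertain where reads could be assigned to more than 1 copy.

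Adhesion, matrix and surface genes followed with larger folds from lower levels. Of 25 integrin, laminin and collagen genes 16 rose and 3 fell (median 0.73). Their summed level did not move, at 1137 ± 42.9 CPM with DMSO and 1139 ± 45.8 CPM with abemaciclib. Without abemaciclib replicate 1, and also without abemaciclib replicate 3, the count of falls was 1. COL12A1, a fibril-associated collagen, had 0, 2.44 and 1.42 CPM with DMSO and 12.2, 11.4 and 12.01 CPM with abemaciclib (log2 change 3.18, SE 0.46, adjusted p = 3.1e-07), LAMB3, a chain of basement membrane laminin, rose from 0.847 ± 0.291 to 5.89 ± 1.27 CPM (log2 change 2.68, SE 0.53, adjusted p = 6.5e-05), and COL5A1 had 56.9, 51.2 and 65.5 CPM with DMSO and 154, 156 and 147 CPM with abemaciclib (log2 change 1.38, SE 0.099, adjusted p = 2.3e-15). MGP, an inhibitor of matrix calcification, fell from 739 ± 17.7 to 477 ± 35.5 CPM (log2 change −0.63, SE 0.06, adjusted p = 8.2e-11). The fibroblast markers as a whole summed to 14.9 to 25.1 CPM with DMSO and 16.8 to 20.2 CPM with abemaciclib. Of 30 junction genes 14 rose and 2 fell; CGN (cingulin) of tight junctions rose from 40.5 ± 5.599 to 84.4 ± 7.41 CPM (log2 change 1.04, SE 0.12, adjusted p = 1.0e-09), and PERP of desmosomes from 19.5 ± 3.73 to 44.97 ± 1.65 CPM (log2 change 1.19, SE 0.16, adjusted p = 6.1e-08).

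Of 21 galectin, annexin and S100 genes 13 rose and 5 fell. S100A8 had 2.98, 2.44 and 2.84 CPM with DMSO and 24.5, 29.9 and 24.98 CPM with abemaciclib (log2 change 3.23, SE 0.27, adjusted p = 4.3e-13), and its partner S100A9, with which it forms the calcium-binding protein calprotectin, had 3 counts in all with DMSO and 62 with abemaciclib, a ratio of 22.7-fold (95% interval 7.43 to 113) that covers counting error only. S100A10 had 99.9, 111 and 82.1 CPM with DMSO and 307, 313 and 298 CPM with abemaciclib (log2 change 1.66, SE 0.09, adjusted p = 1.1e-19), and ANXA2, which it binds at the plasma membrane, rose from 312 ± 31.5 to 611 ± 45.5 CPM (log2 change 0.97, SE 0.07, adjusted p = 2.3e-14). S100P had 8.604, 7.67 and 9.695 CPM with DMSO and 2.66, 1.32 and 1.897 CPM with abemaciclib (log2 change −2.07, SE 0.402, adjusted p = 4.7e-05) and was also lower than with palbociclib, 6.85 ± 1.52 CPM (log2 difference −1.71, SE 0.41, adjusted p = 0.012). Of 21 mucin, trefoil and O-glycosylation genes 9 rose (42.9%) and 4 fell (19.0%), beside 20.3% and 20.1% of all genes. The list had a median of 0.26, and its summed level went from 1368 ± 61.9 to 2361 ± 92.1 CPM. The trefoil peptides TFF1 and TFF3, both known oestrogen targets, rose from 259 ± 11.1 to 1126 ± 59.8 CPM (log2 change 2.12, SE 0.07, adjusted p = 1.9e-27) and from 15.1 ± 3.51 to 67.6 ± 3.38 CPM (log2 change 2.12, SE 0.15, adjusted p = 1.7e-15). Among the falls AGR2, a disulphide isomerase for mucins, went from 21.03 ± 3.45 to 7.01 ± 1.098 CPM (log2 change −1.54, SE 0.25, adjusted p = 2.9e-06), and GALNT14, which starts O-linked sugar chains, from 5.66 ± 1.76 to 1.06 ± 0.607 CPM (log2 change −2.45, SE 0.56, adjusted p = 4.8e-04).

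Of 170 solute carrier genes 45 rose (26.5%) and 22 fell (12.9%), beside 20.3% and 20.1% of all genes. SLC31A2, a copper transporter, had 2.32, 2.79 and 3.31 CPM with DMSO and 16.8, 12.3 and 19.9 CPM with abemaciclib (log2 change 2.52, SE 0.31, adjusted p = 6.7e-09), and SLC19A2, a thiamine transporter, rose from 0.904 ± 0.674 to 6.69 ± 0.908 CPM (log2 change 2.85, SE 0.54, adjusted p = 3.1e-05). ABCC11, an exporter known from apocrine glands, had 9.597, 11.5 and 6.15 CPM with DMSO and 63.8, 44.8 and 46.5 CPM with abemaciclib (log2 change 2.57, SE 0.19, adjusted p = 1.4e-14). Of 384 zinc finger genes 67 rose and 25 fell, shares of 17.4% and 6.51% beside the 20.3% and 20.1% of all genes; the count of falls was 15 without DMSO replicate 3 and also without abemaciclib replicate 1 or 3. Histone genes split: of 25 tested 12 fell and 9 rose, and 2 of the 25 are also on the cell cycle list. H4C3, a replication-dependent histone, had 738, 841 and 597 CPM with DMSO and 63.8, 69.8 and 56.6 CPM with abemaciclib (log2 change −3.52, SE 0.11, adjusted p = 1.1e-27), while H4C8 rose from 8.27 ± 1.94 to 25.8 ± 2.69 CPM (log2 change 1.61, SE 0.22, adjusted p = 5.3e-08). Replication-dependent histone RNAs lack a poly(A) tail, and their copies are near-identical, so an oligo(dT) kit reads them in part and with uncertain assignment. Of 17 clock genes 5 rose (29.4%) and 3 fell (17.6%), with a median of 0.297. BHLHE40, a repressor of the clock, rose from 12.95 ± 4.07 to 29.2 ± 1.97 CPM (log2 change 1.22, SE 0.201, adjusted p = 3.4e-06), as did RORA, a nuclear receptor of its loop, from 9.296 ± 0.799 to 21.3 ± 3.33 CPM (log2 change 1.18, SE 0.24, adjusted p = 8.4e-05). DBP, an output factor, had 10.9, 9.41 and 7.33 CPM with DMSO and 2.39, 1.32 and 2.21 CPM with abemaciclib (log2 change −2.14, SE 0.42, adjusted p = 5.4e-05), and the repressor CRY1 fell from 15.4 ± 2.74 to 7.15 ± 1.25 CPM (log2 change −1.12, SE 0.29, adjusted p = 0.0018).

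By size of change, the rises among called genes outside the set-aside lists with a mean of at least 10 counts and no overlap between groups were led by FGF18, CNGA1, TUBA1A, CCL22, CHI3L2, KRT32, LINC02984 and HOPX. CNGA1 (ENSG00000198515.15, chromosome 4, 47935977 to 48016681), a subunit of a cyclic nucleotide-gated channel, had 4 counts in all with DMSO and 76 with abemaciclib, a ratio of 20.9-fold (95% interval 7.83 to 78.7). CCL22 (ENSG00000102962.5, chromosome 16, 57358783 to 57366189), a chemokine, had 6 and 89 counts, a ratio of 16.3-fold (95% interval 7.21 to 45.6). CHI3L2 (ENSG00000064886.14, chromosome 1, 111200771 to 111243440), a chitinase-like secreted protein, had 6 and 91 counts, a ratio of 16.7-fold (95% interval 7.37 to 46.6). TUBA1A lies at chromosome 12, 49184686 to 49189080. HOPX (ENSG00000171476.22, chromosome 4, 56647989 to 56681877), a small homeodomain protein, had 0, 1.74 and 0.236 CPM with DMSO and 11.4, 9.22 and 4.74 CPM with abemaciclib (log2 change 3.74, SE 0.604, adjusted p = 2.2e-06). These coordinates are from GENCODE release 44 on GRCh38.

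The falls by the same rule were led by TYMSOS, CDKN2C, MT2A, H2AC14, CNIH2, CBLN2, H4C3 and RDH16. TYMSOS (ENSG00000176912.5, chromosome 18, 630886 to 658350), a non-coding RNA beside the thymidylate synthase gene TYMS on the opposite strand, had 80 counts in all with DMSO and 4 with abemaciclib, 18.2-fold (95% interval 6.83 to 68.4) lower. TYMS belongs to the replication genes, and reads of the pair cannot be told apart without strand. CDKN2C (ENSG00000123080.12, chromosome 1, 50960745 to 50974634), an inhibitor of CDK4 and CDK6, had 15.2, 15.7 and 26.2 CPM with DMSO and 1.06, 1.32 and 1.58 CPM with abemaciclib (log2 change −3.85, SE 0.39, adjusted p = 6.4e-11). CNIH2 (ENSG00000174871.11, chromosome 11, 66278175 to 66285301), an auxiliary subunit of glutamate receptors, had 30.1, 33.1 and 31.7 CPM with DMSO and 3.19, 2.63 and 1.58 CPM with abemaciclib (log2 change −3.64, SE 0.28, adjusted p = 1.3e-14), and was lower than with palbociclib (8.43 ± 0.7301 CPM; log2 difference −1.75, SE 0.33, adjusted p = 6.7e-04). MT2A lies at chromosome 16, 56608584 to 56609497. RDH16 (ENSG00000139547.7, chromosome 12, 56951431 to 56959374), a retinol dehydrogenase, had 12.2, 7.32 and 9.695 CPM with DMSO and 1.596, 0.878 and 0.316 CPM with abemaciclib (log2 change −3.28, SE 0.52, adjusted p = 1.6e-06).

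Abemaciclib and palbociclib were given at the same dose for the same time, and both inhibit CDK4 and CDK6 while differing in chemical structure. Of the gene lists, the AP-1 and immediate early genes had 4 of 27 that differed between the drugs, all lower with abemaciclib, and the actin genes had 6 of 38, 3 of them higher with abemaciclib. Of the galectin, annexin and S100 genes 5 of 21 differed, all lower with abemaciclib. Of the ribosomal protein genes 1 of 82 differed. In all 257 genes differed, 154 without abemaciclib replicate 3 and 151 without palbociclib replicate 1. These shares stand beside the 2.33% of all genes, and a difference that misses the threshold is not shown to be absent.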

How the data were processed

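The authors trimmed reads with BBDuk, aligned them to hg38 with STAR 2.7.5b and counted reads per GENCODE gene with featureCounts 2.0.1. The deposited values are raw counts, with no normalization. The treatment of strand, multiply mapped reads and molecular identifiers is not given in the sources used here, and the labels and the methods differ on the kit's direction. Gene symbols were matched for 60401 of 60656 rows, and rows without one held 0.0704% of counts. Genes were filtered by filterByExpr over the 9 CAMA-1 libraries, scaled by TMM and tested in edgeR 4.0.16 (R 4.3.3) as abemaciclib minus DMSO and abemaciclib minus palbociclib. This filter lets a gene pass on the libraries of a single treatment group, so genes nearly absent with DMSO were tested only where a drug group was higher. The interaction with ZR-75-1 was fitted in all 18 libraries. The genes tested held 99.6% of counts, and the biological coefficient of variation was 8.12%. The test was also tried on simulated counts, drawn with means and spread taken from these libraries.

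Named genes were the 8 largest rises and falls by fold (mean of at least 10 counts, no overlap), the 6 largest by CPM, and in each of 68 lists the 2 largest rises and falls and the most abundant member. A further 77 genes were chosen after their values were seen. Members and lists were chosen with earlier results of these data known. Alternatives were RLE and upper-quartile scaling, DESeq2 1.42.0, other count filters, a replicate block, a minimum fold change, other sets of libraries and leaving out each library. Promoter windows are 250 bases before the first RefSeq start listed. Intervals and floors cover counting error only. No comparison columns of the authors were used.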

Additional observations from a re-analysis of the deposited data

Results flagged for a closer look

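Of the 28 genes with the largest changes by fold or by CPM, 14 had an abemaciclib response that differed between CAMA-1 and ZR-75-1 by the interaction test in the fit of all 18 libraries. Over all genes 18.2% differed. The 28 genes were picked by their change in CAMA-1 libraries that the test also used, so differences between the lines were favoured among them. The values are the log2 fold change in CAMA-1 minus that in ZR-75-1 (edgeR quasi-likelihood test, adjusted over 11987 genes). TUBA1A differed by 4.27 (SE 0.22, adjusted p = 1.3e-24), and its own log2 fold change in ZR-75-1 was −0.15. FGF18 differed by 7.59 (SE 1.55, adjusted p = 1.7e-04), on few counts in DMSO. MT2A differed by −0.602 (SE 0.16, adjusted p = 0.0054), with falls in both lines.

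Among mitochondrial transcripts the differences were 1.16 (SE 0.09, adjusted p = 9.0e-16) for MT-ND3, 1.21 (SE 0.104, adjusted p = 9.3e-15) for MT-CO2, 1.16 (SE 0.12, adjusted p = 3.5e-12) for MT-ATP6, 1.07 (SE 0.11, adjusted p = 4.4e-11) for MT-ND4, 0.899 (SE 0.11, adjusted p = 2.2e-09) for MT-CO3 and 0.48 (SE 0.098, adjusted p = 1.8e-04) for MT-RNR2. The ribosomal protein genes RPS3, RPS27A and RPS29 had differences of −0.31 (SE 0.09, adjusted p = 0.008), −0.297 (SE 0.098, adjusted p = 0.025) and −0.25 (SE 0.08, adjusted p = 0.027). TOP2A, the topoisomerase of dividing cells, differed by 1.79 (SE 0.099, adjusted p = 7.3e-23), and NUCKS1, a nuclear phosphoprotein, by 0.25 (SE 0.08, adjusted p = 0.021).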

How the results depend on the processing

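Of the 4457 genes called, 3872 to 4078 were called when 1 library was left out (1929 to 2051 higher, 1931 to 2027 lower). DESeq2 called 3503. A minimum log2 fold change of 1 left 1292 (642 higher, 650 lower), and the calls summed over all lists went from 1048 to 279 with it and to 935 to 980 on leaving out a library. The comparison with palbociclib called 257 genes, 151 to 197 without 1 library (151 without palbociclib replicate 1, 154 without abemaciclib replicate 3) and 47 with that minimum. The difference between lines was called for 2185 genes, 1886 to 2120 without 1 library and 820 with that minimum. The rise in mitochondrial share of 9.07 points was 7.22 for the 13 messenger RNAs alone and 8.43 to 9.80 without 1 library. Between 49.1% and 53.9% of calls were higher over the alternatives run, and no named gene reversed. Of 350 named genes, 18 lost their call with DESeq2. Leaving out 1 library lost between 12 (abemaciclib replicate 3) and 20 (abemaciclib replicate 1) of these calls. Same-numbered libraries did not deviate together (correlations across genes of −0.0055 to 0.0081), so the numbers were taken to name the samples, and with the replicate number as a block 4357, 233 and 2110 genes were called in the 3 comparisons and 1025 list calls were made. Genes below about 10 counts are limited by depth, and a missed threshold does not show equal levels. The causes of these shifts were not tested.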

Other observations

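Membrane traffic and hormone receptor genes held further changes. Of 45 Rab GTPases, which direct vesicles between compartments, 12 rose (26.7%) and 4 fell (8.89%), beside 20.3% and 20.1% of all genes. RAB3B, of regulated secretion, had 8.604, 9.76 and 11.1 CPM with DMSO and 31.9, 27.7 and 44.9 CPM with abemaciclib (log2 change 1.82, SE 0.21, adjusted p = 1.1e-09), and RAB27A, of secretory lysosomes, fell from 13.4 ± 3.89 to 5.79 ± 0.918 CPM (log2 change −1.24, SE 0.299, adjusted p = 7.9e-04). Of 23 nuclear receptors 7 rose (30.4%) and 5 fell (21.7%), and the falls were 3 without any one abemaciclib library. NR3C1, the glucocorticoid receptor, fell from 54.7 ± 8.14 to 32.3 ± 4.13 CPM (log2 change −0.75, SE 0.15, adjusted p = 4.8e-05). IGFBP3, a carrier of insulin-like growth factors, had 1 counts in all with DMSO and 41 with abemaciclib, a ratio of 45.1-fold (95% interval 7.65 to 1824) that covers counting error only.

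Chromatin and differentiation factors changed in both directions. KDM6B, which removes methyl groups from histone H3 lysine residues, rose from 8.65 ± 1.78 to 25.9 ± 3.49 CPM (log2 change 1.58, SE 0.22, adjusted p = 1.2e-07), as did KDM5B from 73.9 ± 7.09 to 159 ± 11.5 CPM (log2 change 1.09, SE 0.09, adjusted p = 7.5e-13), while EZH2, a methyltransferase known to follow the cell cycle, fell from 189 ± 13.7 to 66.03 ± 4.86 CPM (log2 change −1.51, SE 0.101, adjusted p = 2.5e-16). SOX4 had 780.02, 750.2 and 803 CPM with DMSO and 2479.9, 2532 and 2623 CPM with abemaciclib (log2 change 1.71, SE 0.06, adjusted p = 3.2e-26), and SOX11 had 13.2, 14.3 and 13.01 CPM with DMSO and 4.52, 3.07 and 4.43 CPM with abemaciclib (log2 change −1.71, SE 0.35, adjusted p = 8.9e-05). EIF4A2, an RNA helicase of translation initiation, rose from 28.6 ± 2.64 to 65.6 ± 10.1 CPM (log2 change 1.203, SE 0.14, adjusted p = 1.5e-09) against the direction of most ribosomal genes. In the citrate cycle OGDH rose from 38.9 ± 4.85 to 56.7 ± 2.61 CPM (log2 change 0.53, SE 0.13, adjusted p = 6.6e-04) and IDH3B fell from 109 ± 11.7 to 68.6 ± 7.55 CPM (log2 change −0.67, SE 0.11, adjusted p = 1.5e-06).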
